A study of Mus musculus with 16 samples.

Results

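Besides the alpha-defensins, the secretory granules of Paneth cells hold a set of other proteins, and the RNA of 9 genes encoding such proteins was examined here in sorted Paneth cells of mouse small intestine. The genes were taken by name and not by a cut on their values, though with earlier results of these data known. They were Lyz1 and Lyz2 (lysozymes), Mmp7 (matrilysin), Ang4 (angiogenin 4), Itln1 (intelectin 1) and Mptx1 and Mptx2 (mucosal pentraxins). Pla2g2a (a secreted phospholipase A2) and Habp2 (hyaluronan-binding protein 2) completed the set. The set is 9 of the 55414 genes in the deposited table of counts. All 9 passed the filter on low counts, which left 11809 genes to test. Each mouse was injected with vehicle (PBS) or with DEX, which the labels leave unexplained, then 1 h later with either PBS or the cytokine TNF, and was sampled another 3 h on. There were 4 libraries for each of the combinations DEX+TNF, PBS+TNF, DEX+PBS and PBS+PBS, 16 in all, where the name gives the first agent and then the second. The study's methods describe C57BL/6J mice, about 1 mouse per sample, and name no engineered allele and no age for these groups. They also state that the sex of the animals was not considered.

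Paneth cells sit at the base of the small intestinal crypts and release granules with antimicrobial content into the crypt lumen. Lysozyme cleaves the peptidoglycan of bacterial cell walls, secreted phospholipase A2 attacks bacterial membrane phospholipids, angiogenin 4 is a ribonuclease with antimicrobial activity, and matrilysin is the protease that turns mouse pro-alpha-defensins into their active form. Intelectins are lectins that bind sugars on microbial surfaces, and pentraxins are ring-shaped pattern recognition proteins related to C-reactive protein. Habp2 encodes a serine protease of the plasma that is best known from the liver.

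Library totals ran from 7286307 to 15832111 counts, and the 28 Defa genes held 41.1% ± 7.72 (SD, n = 16) of all counts. The 12 Paneth cell markers other than the 9 genes summed to between 240398 and 502249 plain CPM (counts scaled to 1e6 per library), and lymphoid and stromal markers stayed at or near 0. The scaling factors of the trimmed mean of M values method (TMM) were lowest in PBS+PBS 4 (0.503) and PBS+TNF 1 (0.418), so the normalized CPM of these 2 libraries is well above their plain CPM. Nfkbia, an early target of TNF signalling, was at 277 to 337 normalized CPM in PBS+TNF and at 15.6 to 27.3 in both groups without TNF. In DEX+TNF it was at 330 and 382 in libraries 1 and 2 but at 28.3 and 41.0 in libraries 3 and 4, so the results on DEX+TNF are also given without libraries 3 and 4. DEX+TNF 4 also stood apart in markers of other cells, with tuft cell markers at 816 plain CPM in sum against at most 174 in any other library.

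Lyz1 lies at chr10:117123698-117128775 on the minus strand of GRCm39 (ENSMUSG00000069515), and Lyz2 (ENSMUSG00000069516) lies beside it at chr10:117111557-117118346 on the same strand, 5351 bases away. Lyz1 is the Paneth cell lysozyme and Lyz2 is the lysozyme of macrophages and neutrophils. Their coding sequences have the same length of 447 bases, are 95.1% identical and differ at 22 positions. The first 120 coding bases are shown because counts of both genes depend on telling such stretches apart, with the bases that differ between the genes in capitals (11 positions, 5′ to 3′, from GENCODE M39 transcripts on GRCm39).
Lyz1: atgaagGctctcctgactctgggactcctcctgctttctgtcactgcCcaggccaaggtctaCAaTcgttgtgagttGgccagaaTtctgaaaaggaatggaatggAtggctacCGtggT
Lyz2: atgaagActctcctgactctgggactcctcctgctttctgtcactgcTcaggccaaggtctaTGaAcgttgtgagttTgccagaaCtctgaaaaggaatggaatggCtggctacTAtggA

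The sequences just upstream of the start sites of these genes are also much alike. The 120 bases before the annotated start site are shown from RefSeq on GRCm38.p6 (Lyz1 at chr10:117292869-117292988 and Lyz2 at chr10:117282273-117282392, both minus strand), with the 9 differing bases in capitals.
Lyz1: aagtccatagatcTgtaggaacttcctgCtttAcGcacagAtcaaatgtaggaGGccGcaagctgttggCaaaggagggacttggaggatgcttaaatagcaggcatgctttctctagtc
Lyz2: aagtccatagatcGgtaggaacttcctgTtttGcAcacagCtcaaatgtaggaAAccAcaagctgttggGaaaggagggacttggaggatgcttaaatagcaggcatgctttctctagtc

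Mptx1 (ENSMUSG00000026531, chr1:174158084-174160439, plus strand) and Mptx2 (ENSMUSG00000079180, chr1:173101949-173105344, minus strand) lie 1052739 bases apart on GRCm39. Their coding sequences of 660 bases are 92.0% identical and differ at 53 positions. The first 120 coding bases are shown because they differ at 1 position only, in capitals, so that a short read from this stretch cannot be assigned to either gene unless it crosses that base.
Mptx1: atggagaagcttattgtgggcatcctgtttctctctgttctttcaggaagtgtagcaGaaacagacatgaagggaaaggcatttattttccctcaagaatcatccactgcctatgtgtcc
Mptx2: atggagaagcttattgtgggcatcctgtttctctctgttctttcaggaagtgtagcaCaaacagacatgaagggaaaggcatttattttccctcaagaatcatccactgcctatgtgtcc

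The other members are Mmp7 (ENSMUSG00000018623, chr9:7692091-7699587, plus strand), Ang4 (ENSMUSG00000060615, chr14:51990721-52011053, minus strand), Itln1 (ENSMUSG00000038209, chr1:171345690-171368943, minus strand), Pla2g2a (ENSMUSG00000058908, chr4:138559171-138562497, plus strand) and Habp2 (ENSMUSG00000025075, chr19:56275569-56309254, plus strand), all on GRCm39. Pla2g2a carries a frameshift in C57BL/6 mice that abolishes the enzyme. RefSeq lists it as a transcribed pseudogene, so its counts report RNA and not active phospholipase. Of the distinct 70-base stretches of each gene's transcripts, the share also found in another gene was 6.4% for Lyz1 and 11.7% for Lyz2 (with each other and Gm67237), 11.4% for Mptx1 and for Mptx2 (with each other), 12.4% for Ang4 (with Ang5 and 4 other genes), 4.71% for Mmp7 (AV064505) and 4.39% for Habp2 (Nrap). No such stretch of Itln1 or Pla2g2a was shared.

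Together the 9 genes held 22.4% ± 2.94 (SD, n = 16) of all counts, between 17.0% and 27.9% in single libraries. The share was 24.1% ± 2.68 (SD, n = 4) in PBS+PBS, 20.0% ± 1.13 in PBS+TNF, 22.4% ± 2.22 in DEX+PBS and 23.1% ± 4.16 in DEX+TNF. Single libraries ran from 21.8% to 27.9% in PBS+PBS and from 18.3% to 20.8% in PBS+TNF, which did not overlap. The ranges of both DEX groups overlapped with these and with each other. As a share of counts outside the Defa genes, PBS+PBS (34.7% to 52.5%) and PBS+TNF (27.0% to 49.3%) overlapped. These shares are a description, with no test. By counts summed over all libraries, Lyz1 was gene 2 in the table, Itln1 gene 4, Ang4 gene 6, Mptx2 gene 8, Mmp7 gene 16, Pla2g2a gene 42, Habp2 gene 52, Mptx1 gene 297 and Lyz2 gene 1354.

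To compare levels between genes, counts were divided by exon length and expressed as plain CPM per kb. On this scale Lyz1 had the highest mean level, 83129 ± 32854 (SD, n = 16), followed by Itln1 at 45268 ± 8127. Lyz1 was the highest of the 9 in 14 libraries and Itln1 in 2, DEX+PBS 1 and DEX+PBS 2. Mptx2 (20536 ± 6497) and Ang4 (19971 ± 8324) came next, with Mptx2 above Ang4 in 9 of 16 libraries, so these neighbours did not differ beyond their spread. Mmp7 followed at 4965 ± 1145 per kb and Pla2g2a at 794 ± 335, and their ranges over libraries did not overlap. Mptx1 (184 ± 158) and Habp2 (143 ± 53.2) again changed places between libraries, with Mptx1 the higher in 7 of 16. Lyz2 was lowest, at 15.6 ± 7.06 per kb.

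**Figure D1:**
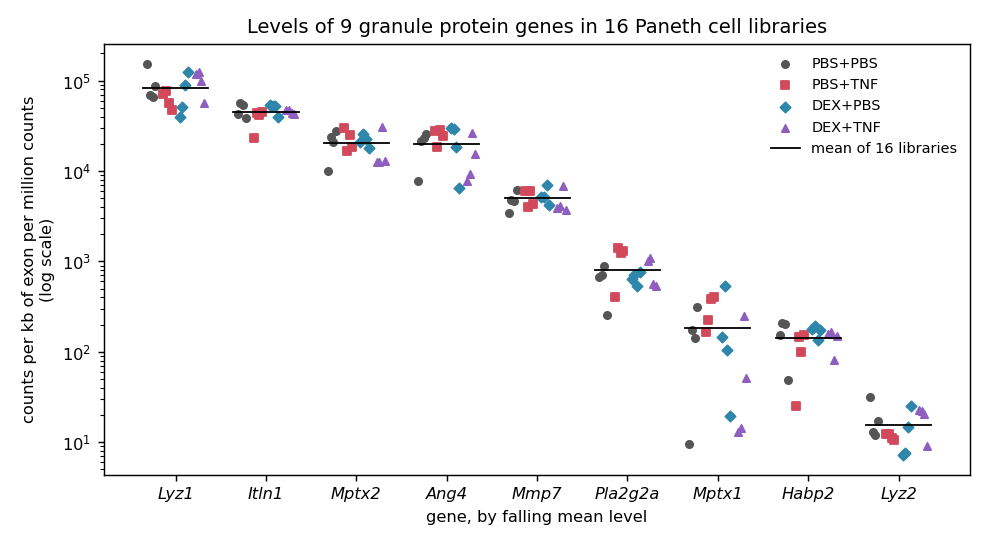
Level of each gene in each library, in plain CPM per kb of exon on a log axis, with points coloured by group and a line at the mean of the 16 libraries. Mean levels fall from 83129 for Lyz1 to 15.6 for Lyz2, and Mptx1 has the widest spread between libraries.

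The genes differed in how far libraries of the same group lay apart. The SD of log2 normalized CPM within groups was 0.40 for the median of the 7817 genes averaging 5 CPM or more. Pla2g2a (0.39), Habp2 (0.36) and Itln1 (0.44) were close to this, while Mmp7 (0.86), Lyz1 (0.90), Lyz2 (0.93), Mptx2 (0.97) and Ang4 (1.10) lay at percentiles 95.6 to 98.2 of those genes. Mptx1 had an SD of 2.00, at percentile 99.6. Tests on Pla2g2a, Habp2 and Itln1 therefore had narrower intervals than tests on the other 6 genes.

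The lysozymes are described first. Lyz1 was at 188788, 80888, 63572 and 222948 normalized CPM in PBS+PBS 1 to 4, and at 218798, 78835, 66853 and 41288 in PBS+TNF. In DEX+PBS it was at 44032, 59218, 153651 and 112424 and in DEX+TNF at 138919, 153506, 167397 and 47672. On this scale every group held libraries that differed over 3-fold, and all groups overlapped. On plain CPM the highest library was 2.36 times the lowest in PBS+PBS, 1.66 in PBS+TNF, 3.17 in DEX+PBS and 2.19 in DEX+TNF.

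Lyz2 ranged from 20.0 to 114 normalized CPM, and its level followed that of Lyz1 from library to library. It had 174 to 1190 counts per library, that is 0.385 to 0.588 counts per 1000 counts of Lyz1, with a mean of 0.486 ± 0.0548 (SD, n = 16). The ratio was 0.505 ± 0.0276 (n = 4) in PBS+PBS, 0.494 ± 0.0758 in PBS+TNF, 0.458 ± 0.0636 in DEX+PBS and 0.485 ± 0.0533 in DEX+TNF, and all groups overlapped. Over the 16 libraries the log2 normalized CPM of the genes correlated with Pearson's r = 0.983 (permutation p = 1e-05, the smallest that 100000 permutations can give, adjusted p = 9e-05 over the 36 pairs of members) and Spearman's rho = 0.965 (permutation p = 1e-05, adjusted p = 0.00018). Without the 2 libraries farthest from the median of Lyz1, r was 0.985, with group means subtracted 0.983, and on plain CPM 0.968.

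Levels of macrophage and granulocyte markers are set beside those of Lyz2. Of the 16 myeloid markers, Itgax and Ly6c2 had no count in any library, Csf1r, Adgre1, C1qb, C1qc, Fcer1g and Tyrobp had counts in DEX+TNF 4 only, and Cd74, which is not specific to myeloid cells, made up most of the summed level of 9.45 to 316 plain CPM. That sum was 9.45 in PBS+PBS 1, where Lyz2 was at its highest plain CPM of 106, and 196 in DEX+TNF 4, where Lyz2 was at 30.01. The highest sum, 316, was in DEX+PBS 4, where Cd74 was at 305 and the macrophage complement gene C1qa at 10.4, and Lyz2 had there its second highest plain CPM, 84.2. The part of myeloid cells in the level of Lyz2 was not tested. How the deposited counts treated reads that match both lysozyme genes is not stated in the sources used here. A low level of Lyz2 RNA in Paneth cells and a small share of Lyz1 reads counted as Lyz2 cannot be told apart with these counts.

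**Figure D2:**
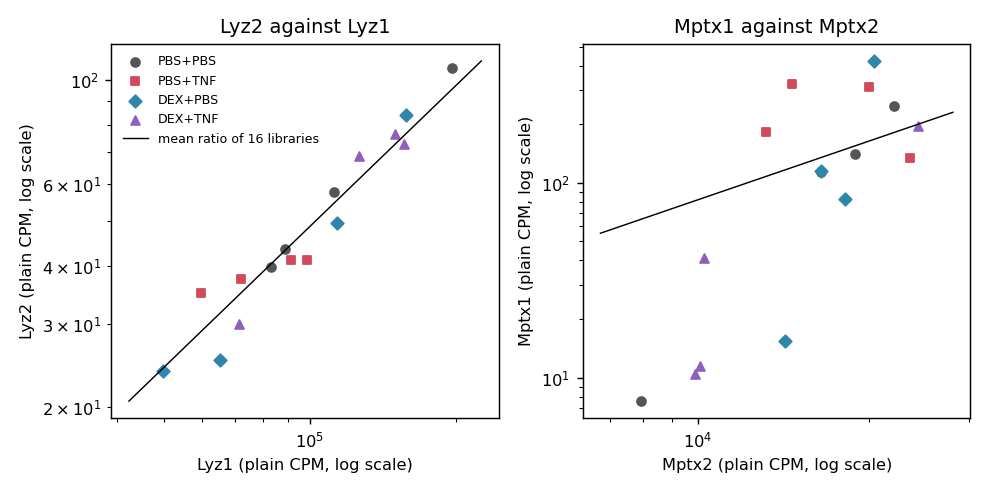
Lyz2 against Lyz1 (left) and Mptx1 against Mptx2 (right), in plain CPM on log axes, with 1 point per library and the line of the mean count ratio of the 16 libraries. Lyz2 stays close to its line at 0.486 counts per 1000 of Lyz1, whereas Mptx1 ranges from 0.956 to 22.0 counts per 1000 of Mptx2.

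Mmp7 was at 3980, 5287, 4325 and 14912 normalized CPM in PBS+PBS and at 17408, 3832, 6828 and 3650 in PBS+TNF. It was at 5470, 5637, 11617 and 3675 in DEX+PBS and at 4434, 4826, 10979 and 2990 in DEX+TNF. The high values of PBS+PBS 4 and PBS+TNF 1 belong to the libraries with the lowest TMM factors, and on plain CPM all 16 libraries lay between 4143 and 8594.

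Mptx2 moved with Mmp7. Its normalized CPM ran from 6838 in DEX+TNF 4 to 56518 in PBS+TNF 1, and Mmp7 counts were 304 to 522.8 per 1000 Mptx2 counts (mean 386 ± 71.2, SD, n = 16). Over the 16 libraries log2 normalized CPM of the genes correlated with r = 0.963 (permutation p = 1e-05, adjusted p = 9e-05 over the 36 pairs) and rho = 0.885 (permutation p = 3e-05, adjusted p = 0.00036). Without the 2 libraries farthest from the median of Mmp7, PBS+PBS 4 and PBS+TNF 1, r was 0.921, and with group means subtracted it was 0.968. On plain CPM it was 0.887. Of the 36 pairs, 11 had an adjusted permutation p under 0.05 for r on normalized CPM. Among them was Mptx2 with Ang4, with r = 0.892 and rho = 0.924, and with r = 0.795 on plain CPM. The scale decided other relations between members: Mmp7 and Itln1 had r = 0.851 (rho = 0.876, adjusted permutation p = 0.000288 and 0.00036) on normalized CPM and r = -0.142 on plain CPM.

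Ang4 and Mptx1 varied most between libraries of a group on normalized CPM, by the SD within groups given above. Ang4 was at 13097, 34497, 31390 and 90892 normalized CPM in PBS+PBS and at 115833, 25893, 46775 and 29564 in PBS+TNF. It was at 46653, 46739, 44253 and 8223 in DEX+PBS and at 12719, 15876, 61570 and 18095 in DEX+TNF. On plain CPM the 4 lowest values, 11538 to 16198, were those of PBS+PBS 1, DEX+PBS 4 and DEX+TNF 1 and 2, and the other 12 libraries lay between 27088 and 52756. Libraries on both sides of this gap occurred in 3 of the groups, and all 4 PBS+TNF libraries lay above it.

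Mptx1 had its lowest plain CPM in the same 4 libraries, at 7.58, 15.4, 10.4 and 11.5, and lay between 41.4 and 422 in the others. Relative to Mptx2, its close relative, it ran from 0.956 counts per 1000 in PBS+PBS 1 (85 counts) to 22.0 per 1000 in PBS+TNF 4 (4511 counts). The counts behind the lowest values were small but not at the limit of detection, and the 95% counting intervals of the ratio in PBS+PBS 1 and PBS+TNF 4 did not overlap. These intervals cover counting error only.

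On plain CPM Lyz1 went the other way, with its 4 highest values, 149627 to 196473, in these 4 libraries and 49793 to 126375 in the other 12. The scale decided this relation too: the r of Lyz1 with Ang4 was -0.781 on plain CPM and 0.133 on normalized CPM. With Mptx1 it was -0.733 and -0.150. Ang4 had 69.4 counts per 1000 counts of Lyz1 in PBS+PBS 1, 73.1 in DEX+PBS 4 and 91.6 in DEX+TNF 1, against 1060 in DEX+PBS 1, a 15.3-fold span that does not depend on how libraries are scaled. Lyz1 took 70.4% of the counts of the 9 genes in PBS+PBS 1 and 25.2% in DEX+PBS 1. DEX+PBS thus held nearly the whole range of the ratio within 1 treatment group, with a mean of 552 ± 452 (SD, n = 4).

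Goblet cell markers did not move together across these libraries. Clca1, a secreted protein of goblet cell mucus, was at 21.2, 117, 12.1 and 13.4 plain CPM in PBS+PBS 1, DEX+PBS 4, DEX+TNF 1 and DEX+TNF 2, the 4 libraries with low Ang4 and Mptx1, and at 186 to 2227 in the others. Spink4, which is also made by Paneth cells and makes up much of the summed level of the 9 markers listed, was at 5051, 5814, 5091 and 5162 in these 4 libraries and at 6783 to 16107 elsewhere. Muc2, the main gel-forming mucin of the gut, was at 2205, 4394, 3460 and 5409 plain CPM there, and Fcgbp, another protein of goblet cell mucus, at 516, 2322, 198 and 110, so that neither was at its lowest in them. The part of goblet cells, or of Paneth cells that express these genes, in the levels of Ang4 and Mptx1 was not tested. In bulk samples fewer cells of a type and less RNA per cell cannot be told apart.

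**Figure D3:**
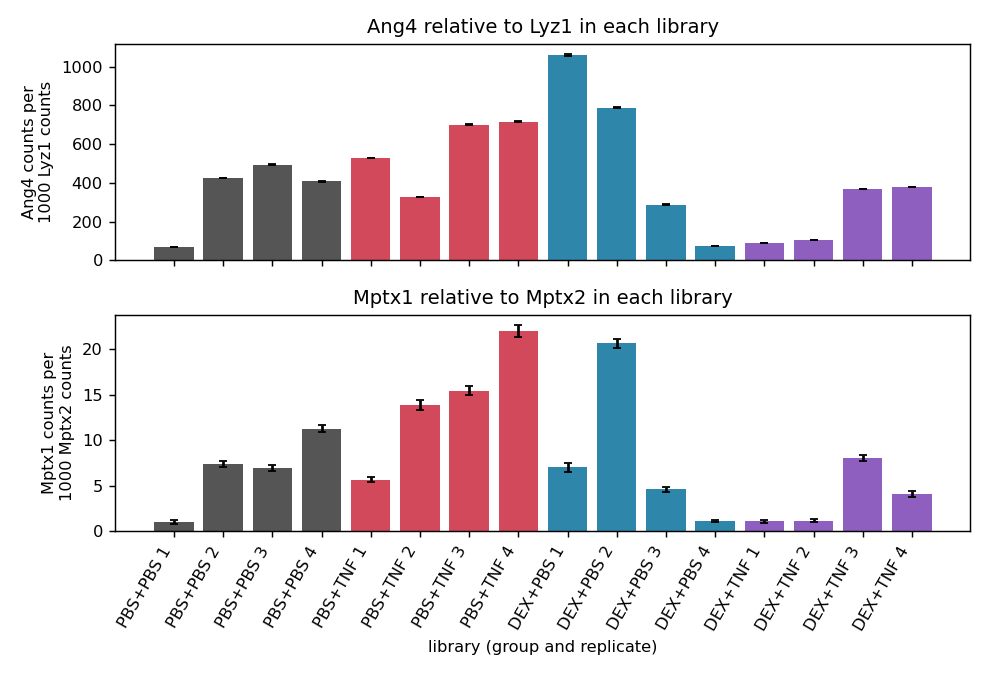
Counts of Ang4 per 1000 counts of Lyz1 (top) and of Mptx1 per 1000 counts of Mptx2 (bottom) in each library, with bars coloured by group and 95% counting intervals as error bars. PBS+PBS 1, DEX+PBS 4 and DEX+TNF 1 and 2 are low in both panels, and DEX+PBS spans nearly the full range.

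Itln1 varied less between libraries than Lyz1, Mmp7, Ang4 and Mptx2 on normalized CPM, by the SD within groups given above. It was at 53140, 67593, 52868 and 100531 normalized CPM in PBS+PBS and at 71400, 45220, 50294 and 40758 in PBS+TNF. It was at 62392, 61563, 91800 and 36782 in DEX+PBS and at 56492, 59609, 75319 and 37468 in DEX+TNF, and all groups overlapped. On plain CPM it lay between 29811 in PBS+TNF 1 and 74400 in PBS+PBS 2, a wider span in relation to its level than that of Mmp7.

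None of the 9 genes was called in a comparison of TNF with PBS after a first injection of PBS (edgeR's quasi-likelihood test, Benjamini-Hochberg adjusted p under 0.05 over 11809 genes), where 12.5% of all genes tested were called. At an unadjusted p under 0.05 there were 2, Pla2g2a and Habp2, in opposite directions. The share of all genes at that cut was not counted, and it is at least the 12.5% that passed adjustment. DESeq2 called 1 of the 9, Pla2g2a, beside 17.5% of all genes. The median log2 fold change of the 9 genes was 0.15, beside -0.03 over all genes tested. Lyz1 had a log2 fold change of -0.45 with a 95% interval from -1.85 to 0.94, Itln1 of -0.40 (-1.36 to 0.56) and Mmp7 of 0.15 (-1.11 to 1.42). For Ang4 it was 0.36 (-1.17 to 1.89), for Mptx1 0.44 (-2.01 to 2.90), for Mptx2 0.23 (-1.19 to 1.66) and for Lyz2 -0.59 (-1.76 to 0.57). These intervals leave room for changes of more than 2-fold in at least 1 direction, and the signs of Mmp7, Ang4 and Mptx2 turned negative without PBS+TNF 1, to -0.58, -0.32 and -0.64.

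Pla2g2a was the member with the lowest p in this comparison. It was at 597, 584, 619 and 461 normalized CPM in PBS+PBS and at 891, 1036, 1040 and 836 in PBS+TNF, so that the groups did not overlap, as was the case for 19.5% of all genes tested, 10.8% with PBS+TNF the higher. The log2 fold change was 0.75 (SE 0.29, 95% interval 0.14 to 1.36), a 1.68-fold higher mean, and it did not pass the threshold (edgeR adjusted p = 0.0994, unadjusted p = 0.0187). DESeq2, which called 17.5% of all genes, gave 0.76 with an adjusted p of 0.0239. Without DEX+TNF 4, a library of neither group that enters the shared estimate of the spread, edgeR's adjusted p was 0.0322, and over all alternatives it ran from 0.0195 to 0.463. On plain CPM the groups overlapped, at 232 to 811 and 372 to 1300.

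Habp2 was at 650, 818, 684 and 423 normalized CPM in PBS+PBS and at 265, 512, 408 and 469 in PBS+TNF. The groups overlapped through PBS+PBS 4. Its log2 fold change was -0.64 (SE 0.28, 95% interval -1.23 to -0.05) and did not pass the threshold (edgeR adjusted p = 0.150, unadjusted p = 0.0349, range of adjusted p over the alternatives 0.0544 to 0.795). Enterocyte markers summed to 193 to 387 plain CPM in PBS+PBS and to 32.0 to 127 in PBS+TNF, without overlap. The sum was lowest in PBS+TNF 1, where Habp2 was also at its lowest normalized CPM. Much of the sum was 1 gene, Anpep, at 62.3 to 362 plain CPM in PBS+PBS and 7.80 to 107 in PBS+TNF. Taken singly, each of the 10 markers overlapped between the groups on plain CPM, and Fabp2 was at 22.7 in PBS+TNF 1 and 9.08 to 29.2 over that group. Anpep overlapped through PBS+PBS 4 only, a library with a low TMM factor (0.503). Single markers were not compared on normalized CPM, the scale used for Habp2. The part of these markers in the differences of Habp2 and Pla2g2a was not tested.

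The ratio of Pla2g2a to Habp2 counts is free of the scaling of libraries, and it is given as a description because this ratio was picked after the values had been seen. It was 0.714 to 1.09 in PBS+PBS, 1.78 to 3.36 in PBS+TNF, and 0.752 to 0.900 in DEX+PBS. In DEX+TNF it was 1.35, 1.36 and 1.45 in libraries 1 to 3 and 0.744 in library 4. All PBS+TNF libraries lay above all others, and DEX+TNF 1 to 3 lay between them and the groups without TNF, although Nfkbia in DEX+TNF 3 was close to that of DEX+PBS. The enterocyte marker sum was 193 to 387 plain CPM in PBS+PBS and 175 to 382 in DEX+PBS. It was lower in PBS+TNF, at 32.0 to 127, and in DEX+TNF 1 to 3, at 114 to 139. These ranges of PBS+TNF and DEX+TNF 1 to 3 overlapped, unlike those of the ratio. In DEX+TNF 4 the sum was 898. Outside DEX+TNF 4 much of this sum was Anpep, at 150 to 361 in DEX+PBS and 131, 113 and 74.1 in DEX+TNF 1 to 3. Fabp2 overlapped between them, at 11.4 to 21.9 in DEX+PBS and 4.17, 5.28 and 17.2 in DEX+TNF 1 to 3. The part of these markers in the ratio was not tested.

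**Figure D4:**
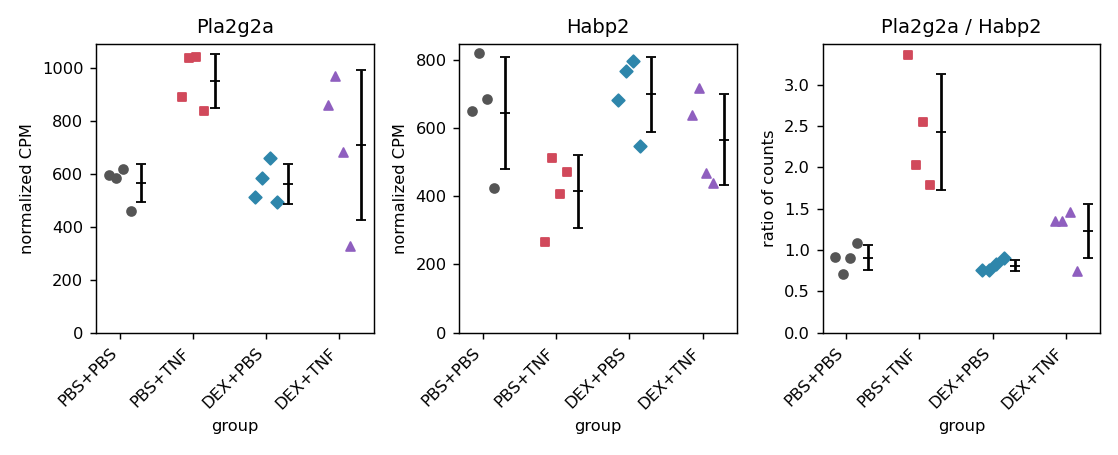
Pla2g2a and Habp2 in normalized CPM and the ratio of their counts, with 1 point per library and the mean and SD (n = 4) beside each group. Pla2g2a lies at 461 to 619 in PBS+PBS and at 836 to 1040 in PBS+TNF, and the ratio lies at 1.78 to 3.36 in PBS+TNF.

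DEX followed by PBS was compared with PBS+PBS to look at DEX alone, and 0 of the 9 genes were called, beside 0.00847% of all genes tested. None reached an unadjusted p under 0.05, DESeq2 called 0 of the 9 (0.0594% of all genes), and the median log2 fold change was -0.22, beside -0.02 over all genes. The narrowest intervals were those of Pla2g2a, -0.01 (95% interval -0.61 to 0.60), and Habp2, 0.12 (-0.47 to 0.70). Lyz1 had -0.59 (-1.99 to 0.81) and Lyz2 -0.74 (-1.91 to 0.42). The signs of Mmp7, Ang4, Itln1, Mptx1, Mptx2 and Pla2g2a were negative with TMM factors and positive when library totals alone were used, a scaling under which the median of all genes moved from -0.02 to 0.14.

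DEX+TNF was compared with PBS+TNF to ask whether DEX given beforehand altered the levels under TNF. Again 0 of the 9 genes were called, beside 0.339% of all genes, none had an unadjusted p under 0.05, and DESeq2 called 0 (2.32% of all genes). The median log2 fold change was -0.42, beside 0.03 over all genes. The estimates furthest from 0 were those of Mptx1, -1.66 (95% interval -4.18 to 0.86), and Ang4, -1.01 (-2.56 to 0.54). The number of genes called here depends on single libraries: it was 40 over all libraries, 0 without PBS+TNF 1, PBS+TNF 3, PBS+TNF 4, DEX+TNF 3 or DEX+TNF 4, and 0 without DEX+TNF 3 and 4 together. Without DEX+TNF 3 and 4 the estimates of Mptx1 and Ang4 were -4.54 and -1.93, still with adjusted p of 0.411 and 0.506. Pla2g2a was at 860, 971, 681 and 326 normalized CPM in DEX+TNF, with a log2 fold change of -0.42 (-1.03 to 0.18), and -0.05 without libraries 3 and 4. Habp2 was at 637, 716, 468 and 438, with 0.45 (-0.14 to 1.03), and 0.71 without them.

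In DEX+TNF against DEX+PBS, which asks for the TNF response after DEX, 0 of the 9 genes were called, beside 0.339% of all genes. None had an unadjusted p under 0.05, DESeq2 called 0 (2.2% of all genes), and the median log2 fold change was -0.18, beside 0.03. That background rests on single libraries: 40 genes were called over all libraries, 362 once DEX+TNF 3 was left out and 230 with DEX+TNF 4 left out instead, and 0 when any 1 of the other 14 was. Without DEX+TNF 3 and 4 together 1286 genes were called, 10.5% of 12223, and 0 of the 9 members. Pla2g2a was at 513, 583, 661 and 493 normalized CPM in DEX+PBS, and its log2 fold change was 0.33 (95% interval -0.27 to 0.94). Without DEX+TNF 3 and 4 it was 0.70 with an adjusted p of 0.0852. Habp2 was at 682, 766, 796 and 548 in DEX+PBS, and its log2 fold change was -0.31 (-0.89 to 0.28). Mptx1 had -0.98 (-3.46 to 1.50), and -3.86 without libraries 3 and 4 (adjusted p = 0.111).

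The interaction, the TNF difference after DEX minus that after PBS, was called for 0 of the 9 genes and for 0% of all genes tested. None of the 9 had an unadjusted p under 0.05, and DESeq2 called 0 of them (0.0763% of all genes). Pla2g2a had -0.42 (95% interval -1.27 to 0.44), Habp2 0.33 (-0.50 to 1.16), Lyz2 1.16 (-0.49 to 2.81) and Mptx1 -1.42 (-4.91 to 2.06) on the log2 scale. Without DEX+TNF 3 and 4 these values were -0.047 for Pla2g2a, 0.59 for Habp2, 1.34 for Lyz2 and -4.31 for Mptx1 (adjusted p = 0.857), that of Ang4 went from -0.79 to -1.71, and 0 of all genes were called. The comparisons that share a group are not independent of each other.

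**Figure D5:**
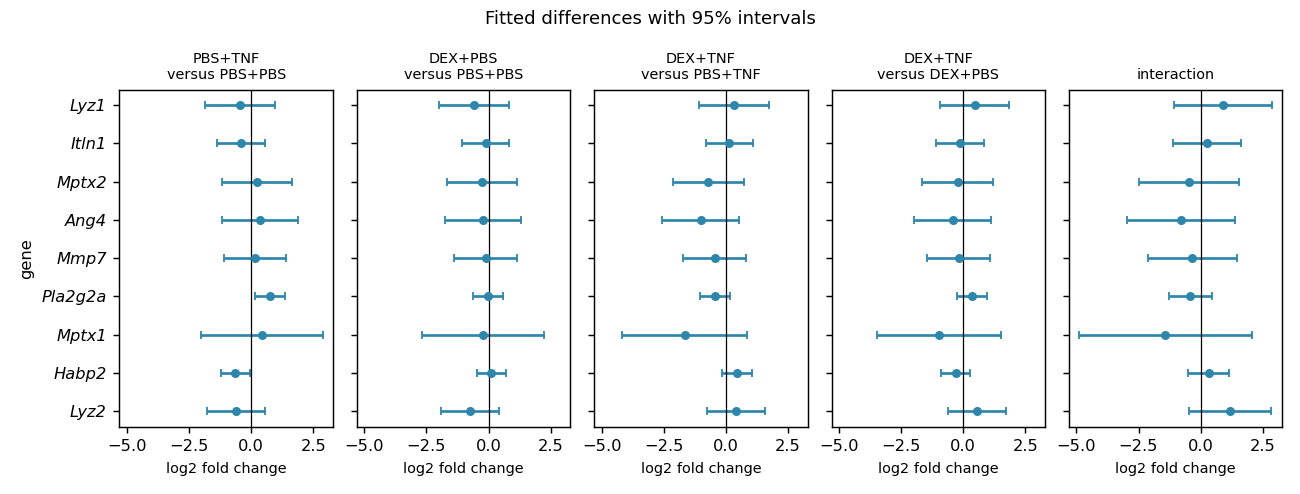
Log2 fold change of each gene in the 5 comparisons, with 95% intervals from edgeR's fit and genes ordered by level per kb. The intervals of Pla2g2a and Habp2 in PBS+TNF versus PBS+PBS are the only ones that leave out 0, and neither passes the threshold after adjustment over 11809 genes.

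Of 31 listed antimicrobial or mucosal defence genes, 18 were tested, and in PBS+TNF against PBS+PBS 3 were called higher and 0 lower, beside 12.5% of all genes called, with a median log2 fold change of 0.66 beside -0.03 over all genes. Nos2, the inducible nitric oxide synthase, rose from 0.499 ± 0.463 to 280 ± 127 normalized CPM (SD, n = 4), or by 8.93 on the log2 scale (SE 1.32; adjusted p = 0.000976 by edgeR). The chemokine Ccl20 rose by 5.01 (SE 0.86, adjusted p = 0.0019) and Ccl28 by 0.89 (SE 0.21, adjusted p = 0.011) on the log2 scale. In DEX+TNF against DEX+PBS 2 of the 18 were higher, Nos2 (5.53, adjusted p = 0.0491) and Ccl20 (5.17, adjusted p = 0.0456), and in the other 3 comparisons 0 were called. These 2 calls were just under the threshold and were lost in most settings, that of Nos2 in 20 and that of Ccl20 in 19 of 28, among them every single library left out other than DEX+TNF 3 and 4, with adjusted p of up to 0.407. In PBS+TNF against PBS+PBS the calls of Nos2 and Ccl20 were kept in all 28 settings, and that of Ccl28 in 26. Reg3g, a C-type lectin, was at 1050 ± 77.6 normalized CPM in PBS+PBS and 2636 ± 921 in PBS+TNF, and its difference did not pass (adjusted p = 0.138).

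Relatives of the members and their inhibitors gave 1 call in PBS+TNF against PBS+PBS, beside 12.5% of all genes. Of 44 such genes, among them other lysozymes, matrix metalloproteinases and their inhibitors, ribonucleases, pentraxins and secreted phospholipases, 43 were in the table and 15 were tested. Pla2g12a, another secreted phospholipase A2, fell from 36.4 ± 2.98 to 23.9 ± 3.04 normalized CPM in PBS+TNF against PBS+PBS (SD, n = 4), a difference of -0.60 on the log2 scale (SE 0.17; adjusted p = 0.0299 by edgeR). The call was kept in 19 of 28 settings and lost without PBS+PBS 2, PBS+PBS 3, PBS+TNF 1, PBS+TNF 2 or PBS+TNF 4. It was at 35.8 ± 5.13 in DEX+PBS and 24.2 ± 2.72 in DEX+TNF, a difference that was not called. The median log2 fold change of the 15 was -0.08 in PBS+TNF against PBS+PBS.

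For each member the genes whose log2 normalized CPM followed it most closely over the 16 libraries were looked up among 7817 genes. Group means were subtracted first, and the genes are given as a description. These r were not computed on plain CPM, and the scale decided some relations between members above. Lyz1 was followed most closely by Lyz2 (r = 0.983), Tfpi (0.929) and Hpd (0.926), and Lyz2 by Lyz1, Thoc1 (0.915) and Tfpi (0.907). Mmp7 had Sec11c (0.988), a subunit of the signal peptidase, Cd63 (0.986) and Jtb (0.985), and Mptx2 had Mmp7 (0.968), Spink4 (0.959) and S100a1 (0.958). Ang4 had Spink4 (0.963), Reg4 (0.962) and Tesc (0.957), and Mptx1 had Reg4 (0.938), Defb1 (0.932) and Clca1 (0.932). Spink4 and Reg4 are expressed in goblet as well as Paneth cells. Itln1 had Lamp2 (0.979), a lysosomal membrane protein, Bag1 (0.953) and Ndfip1 (0.943). Pla2g2a had Dap (0.932), Ppp1r15a (0.917) and Abi1 (0.917), and Habp2 had Ano10 (0.956), Irak1 (0.943) and Rcn1 (0.942).

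Sequence patterns of 3 kinds of factor were looked up in the promoters. In the 250 bases before the start site (RefSeq, GRCm38.p6, 8 members matched, Pla2g2a not among them), searched on both strands, the core TCAAAG of TCF/LEF factors was found in Mptx1 only, and in 14.0% of 27025 promoters. The glucocorticoid receptor half-site pair ACANNNTGT was found in Lyz2 only, and in 5.91% of promoters. It lies in the Lyz2 stretch printed above, at positions -63 to -55 from the start site, whose first base is among those that differ between the genes. An NF-kB pattern, GGG and CC with any 5 bases between, was found in Itln1, in overlapping matches, and in Mmp7, and in 45.4% of promoters. These matches are descriptions of letters and not of binding.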

How the data were processed

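RNA of sorted Paneth cells was measured in 16 libraries in 4 groups of 4, grouped by the treatment in the sample labels. The authors prepared stranded mRNA libraries and, per the labels, used FastQC 0.12, STAR 2.7.10a on mm39 and DESeq2, and the deposited values are raw counts per gene. The study's methods give the GENCODE M30 annotation and Salmon for transcript abundances. How multi-mapping reads and strand were treated when counting is not given in the sources used here. The sequencing run and sorting day of a library are not in the labels, and since about 1 mouse made 1 sample, p-values measure the spread between these samples.

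Identifiers were matched to GENCODE M39 on GRCm39 (54749 of 55414, the 665 others holding 0.00519% of counts). Counts were tested with edgeR 4.0.16 (TMM factors, filterByExpr, robust quasi-likelihood fit of 4 group means over all 16 libraries), with Benjamini-Hochberg adjustment over 11809 genes and a threshold of 0.05. The SE of a log2 fold change was taken from the F statistic. Plain CPM is per 1e6 counts of the library total (7286307 to 15832111), and normalized CPM uses TMM factors. Levels between genes used the summed exon length. Counting intervals are 95% Wilson intervals. Correlations used 100000 permutations. DESeq2 1.42.0, other scalings, filters, a replicate block and leaving out libraries were the alternatives. The fit was tested on simulated data for PBS+TNF against PBS+PBS. It called 22 of 100 genes changed 2-fold, 76 of 100 changed 4-fold and 4 other genes, so most 2-fold changes were missed. Libraries with the same replicate number in 2 groups correlated between -0.365 and 0.504. Unmatched numbers were not compared, so this range cannot decide whether the numbers mark pairs. They were not taken as pairs in the main fit, and the replicate block was run as an alternative.

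The members and gene lists were chosen with earlier results of these data known. The text names all 9 members, the called genes of each list (up to 3 per direction) and the 3 genes most like each member.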

Additional observations from a re-analysis of the deposited data

Results flagged for a closer look

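In 36 sets of 4 libraries, 1 for each of the 9 genes in each group, and in 36 further sets of count ratios, the highest or lowest library was compared with the other 3 by Dixon's criterion, which chance alone meets in about 1 of 20 sets. It was met in 11 of 72.

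In DEX+TNF 3, Ang4 (61570 normalized CPM, others 12719 to 18095), Mptx1 (261, others 9.68 to 27.6) and Mptx2 (32392, others 6838 to 9890) lay above the other libraries of the group. In DEX+PBS 4, Ang4 lay below, at 8223 normalized CPM beside 44253 to 46739. Lyz2 in PBS+TNF 1 (98.8, others 24.3 to 34.8) and Mmp7 in PBS+PBS 4 (14912, others 3980 to 5287) lay above, in the 2 libraries with the lowest TMM factors.

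Among the ratios, which do not depend on scaling, Mptx2 in PBS+PBS 1 had 40.33 counts per 1000 of Lyz1 (others 197 to 212) and Mmp7 in that library 522.8 per 1000 of Mptx2 (others 308 to 344). Mmp7 had 308 per 1000 of Mptx2 in PBS+TNF 1 (others 359 to 367). In DEX+TNF 4, Itln1 had 786 counts per 1000 of Lyz1 (others 388 to 449.9) and Pla2g2a 744.3 per 1000 of Habp2 (others 1350 to 1455). That library also had Nfkbia at 41.0 normalized CPM and the highest sums of enterocyte markers, 898 plain CPM, and tuft cell markers, 816, and the part of any of these in these ratios was not tested.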

How the results depend on the processing

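Over 28 alternative settings, no member was called in any comparison by edgeR or DESeq2, except Pla2g2a in PBS+TNF against PBS+PBS, where DESeq2 and leaving out DEX+TNF 3 and 4 together each gave 1 called member, and leaving out 1 library gave 0 to 1 (1 without DEX+TNF 4). The number of members at their mean rank by level per kb was 5 of 9 with longest transcript lengths and a median of 6 (3 to 9) in single libraries. The members' share of counts outside the Defa genes was 38.8%, and without any 1 library the share of all counts was 22.0% to 22.7%.

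Of 45 log2 fold changes, 26 kept their sign in every setting. In DEX+PBS against PBS+PBS, library totals alone gave Mmp7 0.18, Ang4 0.10, Itln1 0.048, Mptx1 0.32, Mptx2 0.082 and Pla2g2a 0.060, totals outside the Defa genes gave Mmp7 0.094, Ang4 0.0015, Itln1 0.0008, Mptx1 0.099 and Pla2g2a 0.033, and no filter gave Pla2g2a 0.0018. The replicate block gave Mmp7 -0.041 in PBS+TNF against PBS+PBS, and Mptx1 0.10 and Pla2g2a 0.0003 in DEX+PBS against PBS+PBS, and changed no call of the 9 members. Under it 0 genes were called in DEX+TNF against DEX+PBS instead of 40, so that Nos2 (adjusted p = 0.166) and Ccl20 (0.126) were lost there.

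Leaving out 1 library at a time changed signs 34 times. In PBS+TNF against PBS+PBS the ranges were -0.58 to 0.79 for Mmp7, -0.32 to 1.03 for Ang4 and -0.64 to 0.93 for Mptx2. In DEX+PBS against PBS+PBS they were -0.53 to 0.53 for Mmp7, -0.52 to 0.46 for Ang4, -0.35 to 0.12 for Itln1, -1.26 to 1.04 for Mptx1, -0.54 to 0.44 for Mptx2, -0.10 to 0.048 for Pla2g2a and -0.048 to 0.25 for Habp2. In DEX+TNF against PBS+TNF they were -0.96 to 0.30 for Mmp7, -0.019 to 0.35 for Itln1 and -1.47 to 0.17 for Mptx2. In DEX+TNF against DEX+PBS they were -0.69 to 0.24 for Mmp7, -0.32 to 0.094 for Itln1, -3.23 to 0.043 for Mptx1 and -0.97 to 0.035 for Mptx2. In the interaction they were -0.97 to 0.40 for Mmp7 and -1.21 to 0.42 for Mptx2. The cause of these changes was not tested. Upper-quartile factors moved the median of all genes in PBS+TNF against PBS+PBS from -0.03 to -0.15, and library totals alone left 228 genes called there instead of 1476, totals outside the Defa genes 656.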
